A study of Mus with 2 samples.

Results

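The 9 stromal transcription factors Foxd1, Tcf21, Meis1, Meis2, Ebf1, Tbx18, Twist1, Scx and Alx1 were followed across the cell types of the newborn mouse kidney. They were taken by gene symbol, each symbol matched 1 feature, and they made up 9 of the 28693 features in the count tables. The kidneys were collected at birth (P0) and dissociated into single cells, and RNA was counted from transcript 3′ ends on a droplet platform. Both libraries, replicates 1 and 2, carried the same genotype, Rbpj c/- ; Foxd1cre/+, and the control libraries of the design were not analysed here. Rbpj encodes the DNA-binding partner of the Notch receptors. Cre was expressed from Foxd1, so recombination was directed to cells with a history of Foxd1 expression. Both libraries carried the Foxd1cre allele, and counts of Foxd1 RNA from that allele and from the other allele cannot be told apart. The labels did not say whether the libraries came from separate animals, so the errors given here rest on only 2 samples and cannot be read as spread between animals. No value shows an effect of the Rbpj deletion, because all comparisons were between cell types of mutant kidneys.

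As background, the renal stroma is the mesenchyme that surrounds the nephrons and the collecting ducts. Progenitors in the outer cortex that express the forkhead factor Foxd1 give rise to interstitial fibroblasts, pericytes, mesangial cells and vascular smooth muscle. Stromal cells differ by position, from the cortical progenitor zone to the medullary and papillary interstitium, and patterning of that axis is one of the known roles of transcription factors in this compartment. Several of the same factors also act outside the stroma: Foxd1 and Tcf21 are known in podocytes, the epithelial cells of the glomerular filter, and Meis2 and Ebf1 are known in other lineages.

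By position in RefSeq's mouse assembly GRCm38.p6, the assembly of the build named in the submitters' processing notes (mm10), Foxd1 lies at chr13:98354245-98356705 and Tcf21 at chr10:22817263-22820143. Meis1 lies at chr11:18880428-19019651 and Meis2 at chr2:115861264-116067537, and Ebf1 spans chr11:44618100-45008096. Tbx18 lies at chr9:87702800-87731260, Twist1 at chr12:33957671-33959831 and Alx1 at chr10:103007847-103029549. Scx lies at chr15:76457411-76459468, within the span of another gene, Bop1. These spans cover the whole gene with its introns and untranslated regions.

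After filtering, 10847 cells were analysed, 5910 in replicate 1 and 4937 in replicate 2, with median depths of 11716.5 and 12196 UMIs (unique molecular identifiers, each standing for 1 captured RNA molecule). Of the barcodes with at least 2000 UMIs, 8 occurred in both libraries. Clusters were named "-like" from marker genes that included none of the 9 factors, and the factors were also kept out of clustering. The stroma-like class held 1316 and 1112 cells at median depths of 9736.5 and 9272 UMIs, and the podocyte-like class held 484 and 350. The mural-like class, smooth muscle by its markers, held only 29 and 26 cells. Pdgfra, a receptor that marks fibroblasts, stood at 236 and 256 CPM in stroma-like cells (CPM, the UMIs of a gene scaled to the UMI total of its class), at 70.2 and 71.3 CPM in mural-like cells and at 3.32 and 0.351 CPM in podocyte-like cells. Rbpj, the targeted gene, stood at 25.1 ± 0.61 CPM in stroma-like cells (mean ± SD, n = 2 here and throughout), at 84.5 ± 15 CPM in mural-like, 60.2 ± 2.5 CPM in nephron progenitor-like and 28.8 ± 0.073 CPM in proximal tubule-like cells. Among named classes it was highest in immune-like cells, at 147 ± 27 CPM. In barcodes of 10 to 100 UMIs, which carry mostly free RNA, Foxd1 stood at 13.1 and 7.30 CPM, Meis2 at 120 and 155 CPM and Rbpj at 86.8 and 87.6 CPM, while Alx1 had 0 and 2 UMIs.

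Foxd1, the forkhead factor that defines stromal progenitors, was higher in podocyte-like cells than in stroma-like cells as a whole. It stood at 233 and 203 CPM in podocyte-like cells of replicates 1 and 2 and at 87.8 and 81.4 CPM in stroma-like cells. Nephron progenitor-like cells followed with 26.4 and 27.4 CPM, from 707 and 619 UMIs, and mural-like cells had 7.39 and 13.6 CPM from 2 and 4 UMIs. The ranges of these 4 classes did not overlap. All other named classes were at or under 3.54 CPM in both libraries. A UMI of Foxd1 was present in 79.1 ± 3.2% of podocyte-like cells, 37.1 ± 3.5% of those in stroma and 29.9 ± 0.043% in the nephron progenitor-like class. In endothelial-like cells, with median depths of 8719 and 9710 UMIs, the share was 0.572 ± 0.11%. After every cell was thinned to 5000 UMIs the shares were 63.0 ± 5.0% in podocyte-like cells, 27.6 ± 1.4% in stroma-like cells, 10.7 ± 1.1% in nephron progenitor-like cells and 0% in endothelial-like cells. Of all Foxd1 UMIs in kept cells, podocyte-like cells held 39.2 ± 0.73% and stroma-like cells 29.9 ± 0.37%.

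Tcf21, a basic helix-loop-helix (bHLH) factor of visceral mesenchyme and podocytes, had the same order at the top. Podocyte-like cells stood at 666 and 750 CPM, stroma-like cells at 406 and 364 CPM and mural-like cells at 236 and 143 CPM. Nephron progenitor-like and early nephron-like cells, at 28.9 ± 2.2 and 28.4 ± 0.10 CPM, did not differ beyond their spread, and the levels in free RNA were 32.9 and 43.8 CPM. Thinned to 5000 UMIs, 91.5 ± 0.17% of podocyte-like cells and 67.1 ± 3.1% of stroma-like cells had a Tcf21 UMI, against 1.62 ± 0.94% of endothelial-like cells.

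**Figure D1:**
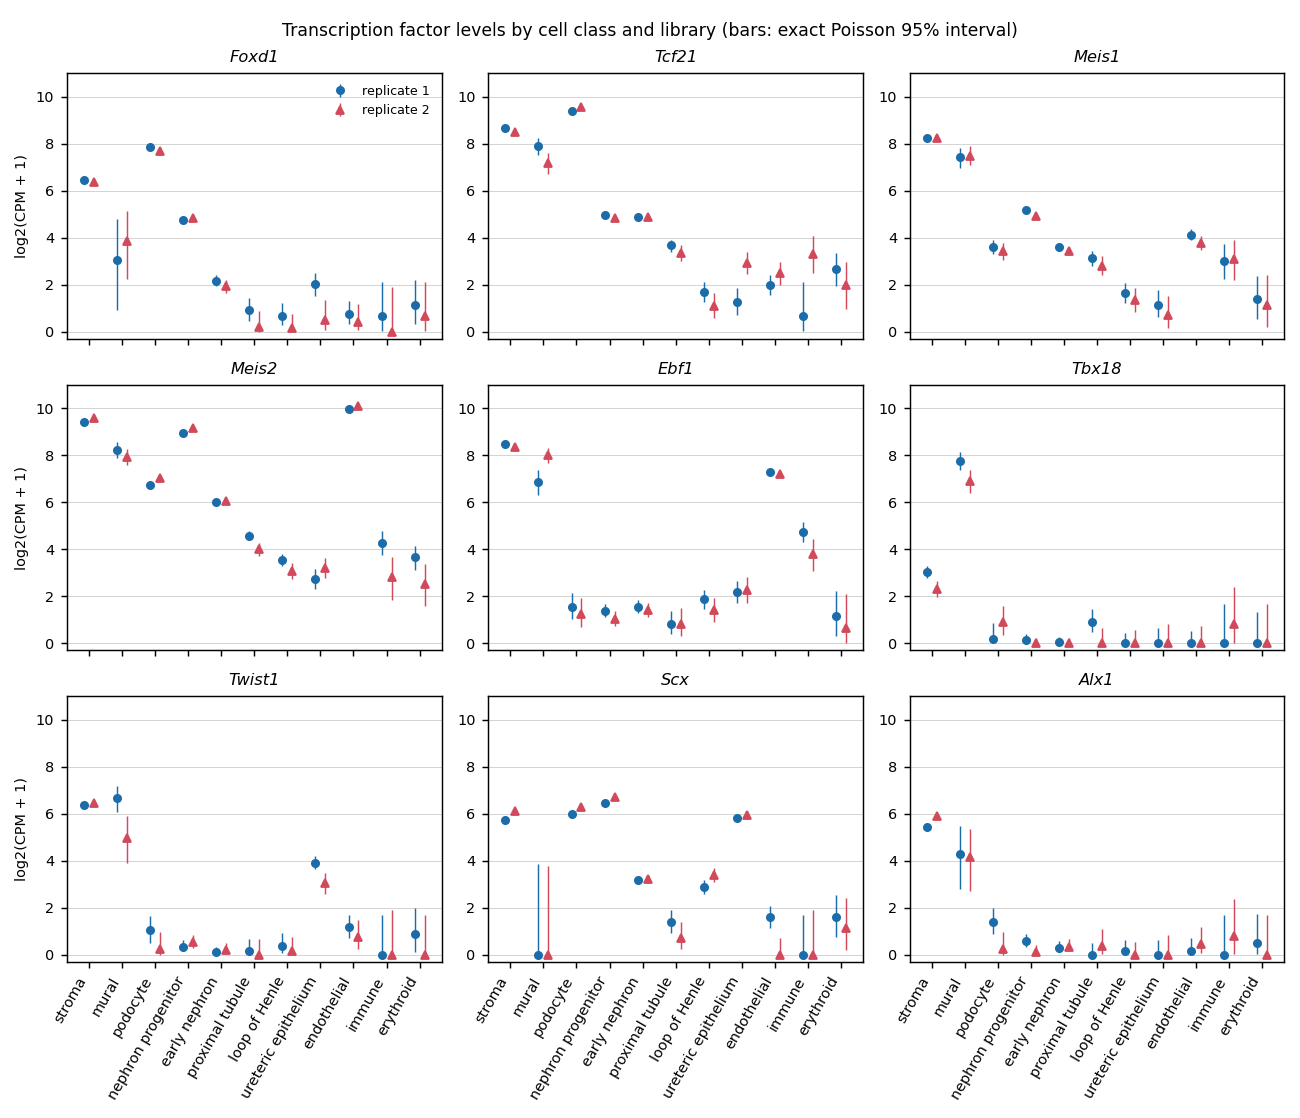
Level of each of the 9 factors by named cell class, on the scale log2(CPM + 1), with circles for replicate 1, triangles for replicate 2 and exact Poisson 95% intervals that cover counting error only. Foxd1 and Tcf21 peak in podocyte-like cells, Meis2 in endothelial-like cells, Tbx18 in mural-like cells and Scx is spread over 4 classes.

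The TALE homeobox factors Meis1 and Meis2, cofactors of Hox and Pbx proteins, were high in stroma and differed elsewhere. Meis1 stood at 304 and 303 CPM in stroma-like cells and at 170 and 180 CPM in mural-like cells, and the next class, nephron progenitor-like, was at 34.9 and 29.8 CPM. Stroma-like cells held 71.3 ± 2.3% of all Meis1 UMIs. Meis2 was highest in endothelial-like cells, at 988 and 1082 CPM, then in stroma-like cells at 677 and 756 CPM and nephron progenitor-like cells at 490 and 577 CPM. These 3 ranges did not overlap. Nephron progenitor-like cells held 40.0 ± 3.8% of all Meis2 UMIs against 26.4 ± 0.52% in stroma-like cells. A Meis2 UMI was found in 94.95 ± 0.67% of endothelial-like, 91.5 ± 0.30% of stroma-like and 87.9 ± 3.0% of nephron progenitor-like cells thinned to 5000 UMIs, and in 3.71 ± 2.3% of ureteric epithelium-like cells.

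Ebf1, an early B-cell factor of the COE family that also acts in mesenchyme and fat, stood at 359 and 321 CPM in stroma-like cells. In mural-like cells it was at 115 and 255 CPM and in endothelial-like cells at 154 and 147 CPM, so those ranges overlapped. Without doublet removal the mural-like mean rose from 185 to 299 CPM, while the endothelial-like mean lay between 137 and 171 CPM over all settings. Immune-like cells were at 25.7 and 12.8 CPM, from only 1.71% of 175 and 0.8% of 125 cells, and at 0 CPM with a mitochondrial limit of 20%. All other named classes were at or under 3.86 CPM in both libraries. An unnamed cluster of 139 cells led by Edn1, Eln, Gja4, Sox17 and Gja5, genes known from arterial endothelium, stood at 327 and 368 CPM.

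Tbx18, a T-box factor of ureteral and vascular smooth muscle, was highest in mural-like cells. It stood at 218 and 119 CPM in mural-like cells, from 59 and 35 UMIs, and at 7.25 and 3.97 CPM in stroma-like cells, so the groups did not overlap. No UMI was found in endothelial-like, erythroid-like, loop of Henle-like or ureteric epithelium-like cells of either library. A count of 0 there allows up to 0.341 and 0.533 CPM in endothelial-like cells (3 counts of the class total). The far larger stroma-like class held 54.4 ± 4.6% of all Tbx18 UMIs and mural-like cells 38.2 ± 4.9%.

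The bHLH factor Twist1, known in mesenchyme and in epithelial-mesenchymal transition, stood at 82.2 and 86.0 CPM in stroma-like cells and at 99.8 and 30.5 CPM in mural-like cells, and these ranges overlapped. Outside them it was found mainly in ureteric epithelium-like cells, at 14.1 and 7.30 CPM from 92 and 34 UMIs. There the cluster of 106 cells led by Calb1, Ret and Wnt11 stood at 29.3 and 16.5 CPM. Stroma-like cells held 90.7 ± 3.9% of all Twist1 UMIs.

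Scx, the bHLH factor scleraxis of tendon and ligament progenitors, was spread over 4 classes. Nephron progenitor-like cells stood at 85.6 and 102 CPM, podocyte-like cells at 61.5 and 76.0 CPM, stroma-like cells at 51.4 and 69.0 CPM and ureteric epithelium-like cells at 55.6 and 60.3 CPM. The last 3 classes overlapped in turn. Mural-like cells had 0 UMIs in both libraries, which allows up to 11.1 and 10.2 CPM. Thinned to 5000 UMIs, 34.5 ± 3.9% of nephron progenitor-like, 29.7 ± 6.6% of podocyte-like, 23.3 ± 0.86% of ureteric epithelium-like and 17.7 ± 2.9% of stroma-like cells had an Scx UMI, against 0.190 ± 0.27% of endothelial-like cells. Bop1, in whose span Scx lies, stood between 10.2 and 34.5 CPM in every named class but the erythroid-like one, at 22.4 and 22.6 CPM in endothelial-like cells where Scx had 18 and 0 UMIs.

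Alx1, a paired-type homeobox factor best known from craniofacial mesenchyme, was found mainly in stroma. It stood at 42.8 and 59.4 CPM in stroma-like cells and at 18.5 and 17.0 CPM in mural-like cells, where it had 5 UMIs in each library. With a mitochondrial limit of 5% the stromal mean fell from 51.1 to 17.7 CPM, and that of Tcf21 from 385 to 240.5 CPM. Every other named class was at or under 1.66 CPM, and stroma-like cells held 95.5 ± 2.3% of all Alx1 UMIs. It was detected in 16.1 ± 1.3% of stroma-like cells thinned to 5000 UMIs.

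Stroma-like cells were then compared with the average log2 level of 9 classes, all those with a name except mural-like cells, with edgeR's quasi-likelihood test on UMIs summed per library and class. All 9 factors passed the low-count filter, Tbx18 and Alx1 only through the stromal and mural groups where they are high, so that they had to differ. With them, 9 of 9 were higher in stroma-like cells at an adjusted p under 0.05 (Benjamini-Hochberg over all genes). Among all 15370 genes tested, 32.3% were higher and 20.8% lower, and the members were picked as stromal factors with results of these cells known, so their direction is no independent evidence. The log2 fold changes ran from 3.30 ± 0.19 (SE) for Scx and 3.62 ± 0.10 for Meis2, through 4.69 ± 0.12 for Tcf21, 4.80 ± 0.14 for Foxd1 and 5.30 ± 0.06 for Meis1, to 6.19 ± 0.10 for Ebf1. Twist1 at 7.64, Alx1 at 7.70 and Tbx18 at 6.64 were compared with classes at or near 0 UMIs, and their fitted values depend on the prior count. The median over the 9 was 5.30, against 0.09 over all genes tested.

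Podocyte-like cells were compared with the mean log2 level of 4 other nephron-lineage classes (nephron progenitor-like, early nephron-like, proximal tubule-like and loop of Henle-like). Foxd1 was higher by a log2 fold change of 6.58 ± 0.13 (SE), Tcf21 by 5.89 ± 0.13, Scx by 2.78 ± 0.16 and Meis2 by 1.15 ± 0.13, with adjusted p from 3.13e-22 for Foxd1 to 5.16e-08 for Meis2 by edgeR's quasi-likelihood test. For Meis2 the sign holds only on the log scale: the plain mean of the 4 classes was 156 CPM against 119 CPM in podocyte-like cells, and nephron progenitor-like cells stood above podocyte-like cells for both Meis2 and Scx. In total 6 of 9 factors were higher and 0 lower, where 28.7% of all genes tested were higher and 32.8% lower. The other 2 calls rest on few molecules and were lost in alternatives, Tbx18 with DESeq2 (adjusted p = 0.257) and Alx1 at a Leiden resolution of 0.5 (adjusted p = 0.57, edgeR's quasi-likelihood test). Tbx18 had 1 and 5 UMIs in podocyte-like cells and its direction turned without replicate 2, to a log2 value of -0.082. Alx1 had 11 and 1 UMIs, and its log2 value fell from 2.43 to 0.044 without replicate 1. Meis1 (adjusted p = 0.0945), Ebf1 (0.803) and Twist1 (0.0827) did not pass edgeR's quasi-likelihood test. The same levels of Meis1, 11.3 and 9.83 CPM, stood below the 27.6 and 24.3 CPM of free RNA.

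Set directly against stroma-like cells, podocyte-like cells were higher for 2 factors and lower for 6. Foxd1 was higher in podocyte-like cells by 1.24 ± 0.12 (SE) on the log2 scale, with an adjusted p of 8.73e-09, and Tcf21 by 0.75 ± 0.16, with an adjusted p of 2.30e-04 (edgeR's quasi-likelihood test). The Tcf21 call was lost with DESeq2, where the log2 value was 0.74 and the adjusted p 0.324. In all 6 of 9 were lower: Ebf1 by a log2 fold change of -7.76 ± 0.23, Twist1 by -7.13 ± 0.33, Alx1 by -5.81 ± 0.43, Meis1 by -4.97 ± 0.12, Tbx18 by -3.61 ± 0.64 and Meis2 by -2.72 ± 0.16. The Tbx18 call was lost with DESeq2, at an adjusted p of 0.368. Tbx18 and Alx1 passed the filter of this fit only through the stromal and mural groups, so that they had to differ here too. Podocyte-like cells held 1 and 5 UMIs of Tbx18, 11 and 1 of Alx1, 7 and 1 of Twist1 and 13 and 8 of Ebf1. The fitted values of these 4 rest on those few counts. Scx differed by 0.07 ± 0.16 and did not pass the test (adjusted p = 0.744, edgeR's quasi-likelihood test). Of all genes tested, 29% were higher and 31.6% lower, so a majority of genes differed here. Summed levels of the 6 stroma markers were 600 and 743 CPM in podocyte-like cells and 6417 and 6945 CPM in stroma-like cells, and their part in the podocyte values was not tested.

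The podocyte-like cells consisted of 2 clusters that differed in Foxd1. The cluster of 607 cells led by Nphs1 and Thsd7a stood at 292 and 273 CPM of Foxd1, and the cluster of 227 cells led by Pcp4 and Ndnf at 156 and 133 CPM. Tcf21 was alike in both, at 646 and 751 CPM and at 694 and 749 CPM. Scx was at 79.3 and 104 CPM in the first and at 37.9 and 48.4 CPM in the second, while Meis2 ran the other way, at 68.2 and 86.7 CPM and at 157 and 176 CPM. A further cluster of 193 cells, left unnamed, carried Foxd1 at 150 and 141 CPM with Tcf21 at only 40.3 and 40.5 CPM, and was led by Tagln, Hbegf, Cryab and Ntn4. It scored best on the mural-like panel, and was refused that name because its stromal panel was not above the mean. That condition was set after seeing the data, and the mural-like values depend on it. No unnamed cell held a Tbx18 UMI.

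Within the stroma, cells were assigned to 6 subtypes by marker panels that held none of the factors, using a gate on the mean scaled marker level. Of 2483 stroma-like and mural-like cells, 651 fell in a gate: 83 cortical, 123 medullary, 131 interstitial (Igfbp3, Cxcl14 and Smoc2), 113 mesangial, 94 adventitial (Clec3b, Dpt, Tnxb and Pi16) and 107 mural. The remaining 1832 cells stayed ungated, and 157 of the 2483 lay near a cut. Near a cut were 19 of the 83 cortical and 29 of the 113 mesangial cells, and 0 to 13 cells of each other gate. All 94 adventitial cells lay in 1 cluster of 122 cells. The summed podocyte panel was between 27.3 and 67.4 CPM in all 6 gates, with 0 to 3 of its 6 markers at 0, and its per-cell median was 0. The endothelial panel summed to between 33.6 and 153 CPM, and its part in the gate values was not tested. All 9 factors passed the low-count filter of this fit, in which 8101 genes were tested.

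The cortical gate, made from Fibin, Ntn1, Crym, Clca3a1 and Rspo3, carried Foxd1 and Scx together. Crym and Rspo3 were also among the leading genes of a nephron progenitor-like cluster, and Clca3a1 of the cluster led by Igfbp3. The part of such cells in the gate values was not tested. Foxd1 stood at 161 and 229 CPM and Scx at 102 and 153 CPM, whereas Scx was between 0 and 12.4 CPM in the other 5 gates of both libraries. Neither was confined to this gate. The 1832 ungated stromal cells, left out of the gate comparisons, stood at 96.1 and 89.6 CPM of Foxd1 and 61.7 and 81.9 CPM of Scx. They held 654 and 668 Scx UMIs, against 34 and 73 in the cortical gate. Against the mean log2 level of the other gates, as in all gate comparisons, Foxd1 was higher by a log2 fold change of 3.48 ± 0.29 (SE) with an adjusted p of 3.21e-06, and Scx by 5.98 ± 0.45 with an adjusted p of 2.28e-06 (edgeR's quasi-likelihood test). Scx passed the low-count filter through the cortical gate, since the comparison gates held 13 Scx UMIs in all. Its fitted value depends on the prior count, and the change was 4.08 and 4.57 in single libraries. Twist1 (1.73 ± 0.41), Meis2 (1.003 ± 0.13) and Meis1 (0.97 ± 0.16) were also higher, and the Twist1 call was lost with DESeq2 at an adjusted p of 0.0501. Tcf21 went the other way, at 197 and 77.7 CPM, with a log2 fold change of -1.34 ± 0.20. Thus 5 of 9 factors were higher and 1 lower, where 5.12% and 4.65% of all genes tested were higher and lower.

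In the medullary gate Alx1 and Tcf21 were higher and 5 factors lower. Alx1, at 290 and 364 CPM, was higher than in the other gates by a log2 fold change of 3.77 ± 0.23 (SE), with an adjusted p of 6.68e-08, and Tcf21, at 674 and 569 CPM, by 1.40 ± 0.15 (edgeR's quasi-likelihood test). Foxd1 had 2 and 0 UMIs there, or 3.92 and 0 CPM, and was called lower, with a fitted value of -4.59 that rests on those 2 UMIs. Also lower were Ebf1 at 120 and 53.0 CPM (-1.67 ± 0.26) and Twist1 at 11.8 and 8.15 CPM (-2.33 ± 0.62). Meis2 (-0.56 ± 0.15) and Tbx18 (-2.04 ± 0.61) were also called lower, but both calls were lost with DESeq2 and in the fit without a library term, and the Foxd1 and Meis2 calls did not hold in graph sub-clusters. The Twist1 call was lost at a gate minimum of 1.5, at an adjusted p of 0.0514 by edgeR's quasi-likelihood test. In all, 2 of 9 were higher and 5 lower, against 5.58% and 4.91% of all genes tested. Meis1 at 174 and 148 CPM did not pass (adjusted p = 0.0832, edgeR's quasi-likelihood test).

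**Figure D2:**
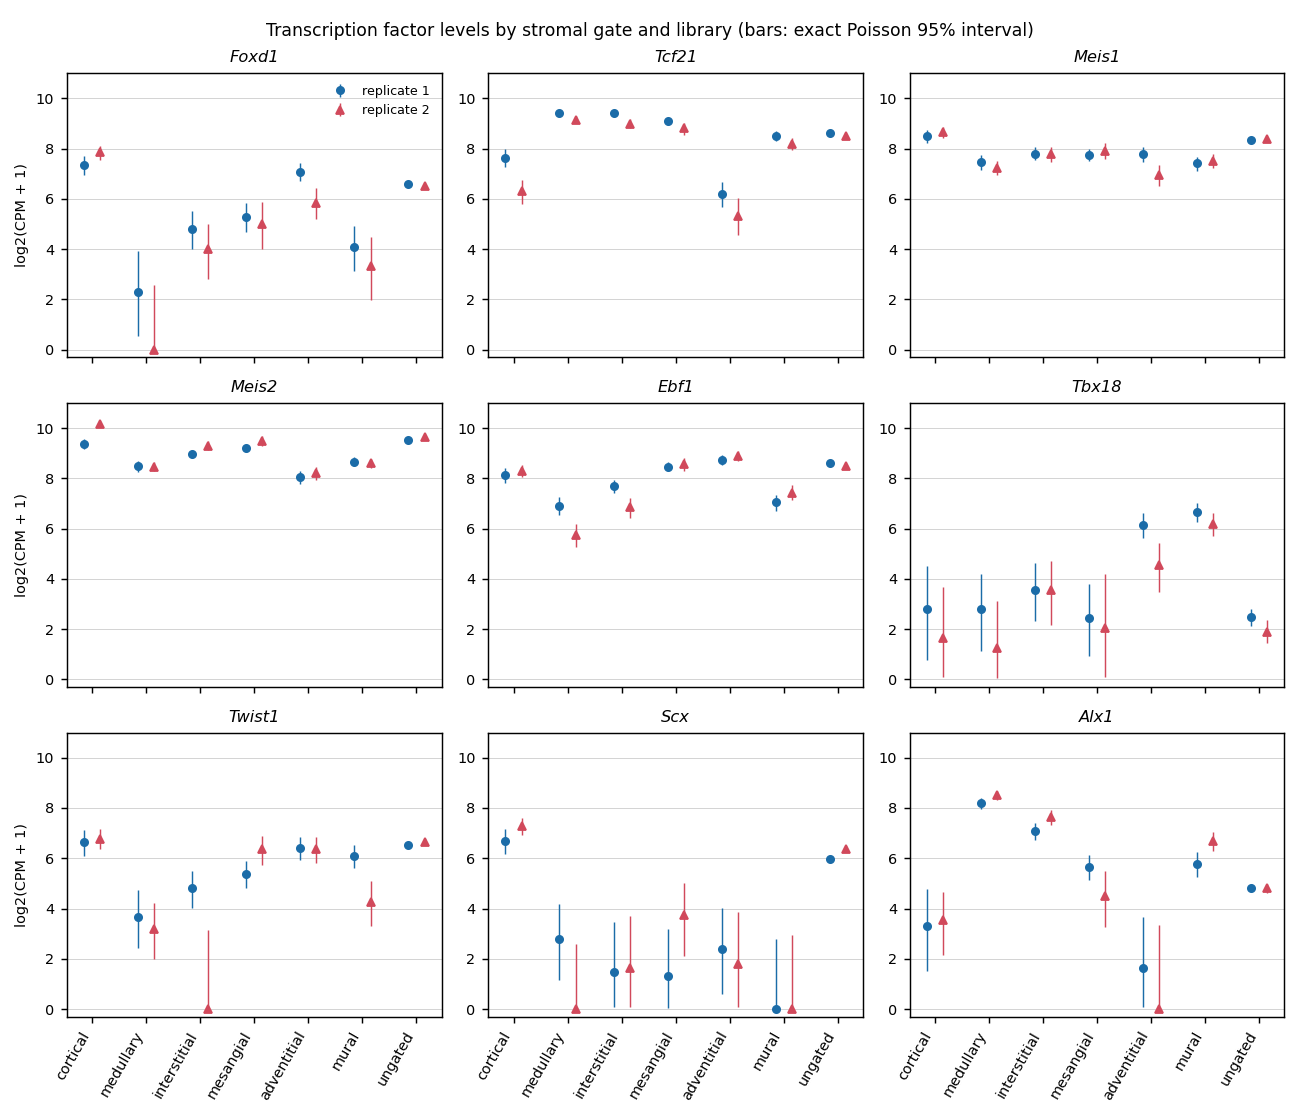
Level of each of the 9 factors in the 6 stromal gates and in ungated stromal cells, on the scale log2(CPM + 1), with circles for replicate 1, triangles for replicate 2 and exact Poisson 95% intervals for counting error only. Foxd1 and Scx are highest in the cortical gate and Alx1 in the medullary gate, and Meis1 varies least across gates.

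In the interstitial gate Alx1 and Tcf21 were again higher. Of its 131 cells, 79 lay in the cluster led by Igfbp3, where Alx1 was at 46.5 and 56.8 CPM, and 32 in the cluster led by Nts and Penk, which also held 114 of the 123 medullary cells. Alx1 stood at 135 and 197 CPM and Tcf21 at 675 and 509 CPM, and both were higher than in the other gates, by log2 fold changes of 2.59 ± 0.28 (SE) and 1.31 ± 0.16 with adjusted p of 5.40e-05 and 1.26e-04 by edgeR's quasi-likelihood test. The other 7 factors were not called, where 3.8% of all genes tested were higher and 1.1% lower. Foxd1 stood at 26.9 and 14.98 CPM in this gate, and its range lay apart from those of the medullary and cortical gates but overlapped that of the mural gate.

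In the mesangial gate, made from markers of the contractile cells that hold the glomerular capillaries, Tcf21 stood at 541 and 446 CPM and Ebf1 at 353 and 375 CPM. Both were called higher, by log2 fold changes of 0.98 ± 0.16 (SE) and 0.87 ± 0.21 with adjusted p of 0.00316 and 0.0298 (edgeR's quasi-likelihood test). The Ebf1 call was lost with DESeq2 (adjusted p = 0.106) and at a mitochondrial limit of 20% (adjusted p = 0.0694). Here 2 of 9 were higher and 0 lower, against 2.37% and 1.2% of all genes tested. Of the 113 gated cells, 61 lay in the stroma-like cluster led by Gucy1a3 and G0s2 and 33 in that led by Igfbp3. Both clusters stood above the gate in Tcf21 in both libraries, so a high Tcf21 level was not particular to this gate.

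The adventitial gate, the Clec3b and Dpt fibroblasts that line vessels and capsule in many organs, had the lowest Tcf21 of the 6 gates in both libraries. Foxd1 stood at 135 and 56.6 CPM, Tcf21 at 71.7 and 39.4 CPM, and Alx1 had 1 UMI in replicate 1 and 0 in replicate 2. A Tcf21 UMI was present in 22.6% and 22.0% of these cells and a Foxd1 UMI in 52.8% and 26.8%. Ebf1 was at 424 and 477 CPM, the highest of the 6 gates in both libraries, and Tbx18 at 69.6 and 22.1 CPM was second to the mural gate. By edgeR's quasi-likelihood test Foxd1 (2.28 ± 0.34 on the log2 scale), Tbx18 (2.43 ± 0.35), Ebf1 (1.33 ± 0.20) and Twist1 (1.40 ± 0.43) were higher and Tcf21 (-2.72 ± 0.23), Alx1 (-5.62) and Meis2 (-0.90 ± 0.16) lower. The adjusted p ran from 7.66e-07 for Tcf21 to 0.0271 for Twist1 in edgeR's quasi-likelihood test, and the Twist1 call was lost with DESeq2 at 0.0794. The Meis2 call was lost at a gate minimum of 1.5, where edgeR's quasi-likelihood test gave 0.0623. The Foxd1 change was 1.40 and the Tbx18 change 1.16 without replicate 1. Thus 4 of 9 were higher and 3 lower, where 13.8% and 9.69% of all genes tested were. The nephron progenitor panel summed to 103 CPM in this gate of replicate 2 and to 6.32 CPM in replicate 1, and its part in these values was not tested.

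In the mural gate Tbx18 stood at 99.0 and 71.1 CPM and was higher by a log2 fold change of 3.54 ± 0.29 (SE), with an adjusted p of 1.37e-06 (edgeR's quasi-likelihood test). Of the 107 gated cells, 54 came from the mural-like cluster and the rest from stroma-like clusters, 20 of them from the cluster led by Nts and Penk, where Alx1 is high. The Tbx18 mean of 85.1 CPM became 209 CPM with sub-clusters and 54.4 CPM at a gate minimum of 0.5. Alx1, at 54.3 and 102 CPM, was also called (1.37 ± 0.33, adjusted p = 0.0168 by edgeR's quasi-likelihood test), but the plain mean of the other gates, 108 CPM, lay above the 78.2 CPM of the mural gate, and the medullary and interstitial gates were both higher. The change was also 0.45 without replicate 2 and -0.14 in graph sub-clusters, and the call was lost with DESeq2 at an adjusted p of 0.091. In total 2 of 9 were higher and 0 lower, against 6.46% and 1.78% of all genes tested. Scx had 0 UMIs in both libraries of this gate, which allows up to 4.79 and 5.47 CPM.

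**Figure D3:**
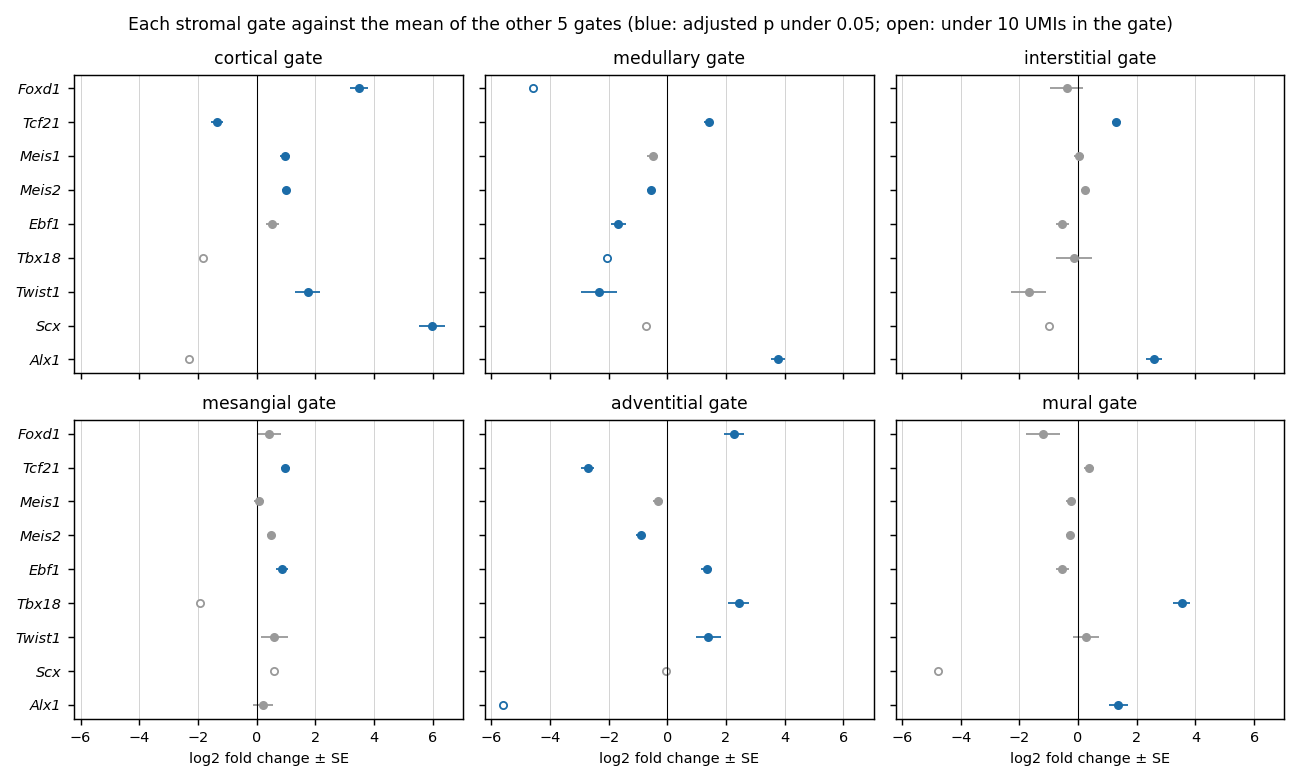
Log2 fold change ± SE of each factor in 1 gate against the mean log2 level of the other 5 gates, from edgeR's fit, blue where the adjusted p is under 0.05 and open without SE where the gate held under 10 UMIs. Foxd1 runs from 3.48 in the cortical gate to -4.59 in the medullary gate, and Tcf21 from 1.40 in the medullary gate to -2.72 in the adventitial gate.

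The order of the gates was read from the mean levels. For Foxd1 the cortical gate came first, then the adventitial, mesangial, interstitial, mural and medullary gates, and only the interstitial and mural ranges overlapped. This Foxd1 order is that of the main setting, and levels below the adventitial gate moved with the setting. At a gate minimum of 0.5 the interstitial mean rose from 21.0 to 35.1 CPM. The mural mean rose from 12.5 to 30.3 CPM there, and was 0 CPM with sub-clusters. The mesangial mean rose from 34.4 to 63.3 CPM with sub-clusters, where the one so named was led by Igfbp3. For Tcf21 the medullary, interstitial and mesangial ranges overlapped one another in turn, and the mural, cortical and adventitial ranges followed without overlap. Alx1 fell from 327 ± 52 CPM in the medullary gate through 166 ± 44 CPM in the interstitial gate and 78.2 ± 34 CPM in the mural gate (14.1 CPM in the mural sub-cluster) to 35.6 ± 20 CPM in the mesangial, 9.73 ± 1.1 CPM in the cortical and 1.05 ± 1.5 CPM in the adventitial gate. Meis1 and Meis2 had the same first 4 gates, cortical, mesangial, interstitial and mural. On the log2 scale Meis1 moved least, between 161 ± 19 CPM in the medullary and 380 ± 30 CPM in the cortical gate.

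Graph clusters of the stroma, built without the factors, held more cells. The cluster of 672 cells led by Mgp, Reln, Gdnf and Fibin stood at 172 and 184 CPM of Foxd1, 141 and 186 CPM of Scx, 390 and 407 CPM of Meis1 and 124 and 104 CPM of Tcf21. The cluster of 204 cells led by Nts and Penk stood at 4.88 and 0.821 CPM of Foxd1 and at 278 and 337 CPM of Alx1, with Tcf21 at 694 and 534 CPM. Another 2 clusters, 685 cells led by Gucy1a3 and G0s2 and 262 cells led by Igfbp3 and Thbs2, had Tcf21 at 606 and 611 CPM and at 736 and 673 CPM, and Foxd1 at 45.5 and 27.1 CPM and at 31.0 and 29.7 CPM. The 122 cells led by Dlk1 and Clec3b had 117 and 54.1 CPM of Foxd1, 82.9 and 44.5 CPM of Tcf21, 381 and 421 CPM of Ebf1 and 65.7 and 27.1 CPM of Tbx18. The larger podocyte-like cluster stood above every stroma-like cluster in Foxd1 in both libraries, and above every one in Tcf21 in replicate 2 only. The smaller one lay below the Mgp-led stroma-like cluster in Foxd1 in both libraries.

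**Figure D4:**
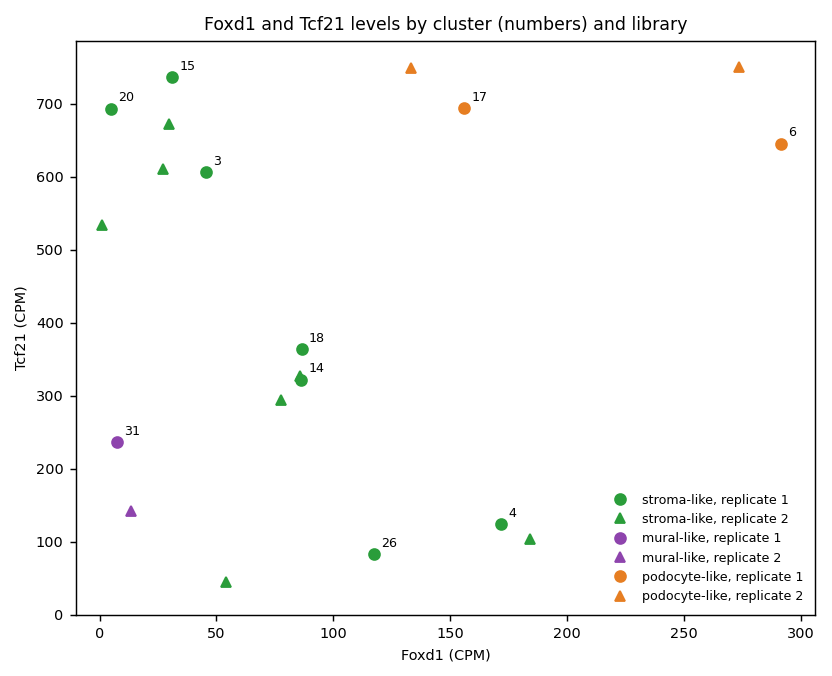
Foxd1 against Tcf21 in CPM for each stroma-like, mural-like and podocyte-like cluster, with circles for replicate 1 and triangles for replicate 2, and cluster numbers beside the circles. Stroma-like clusters run from high Tcf21 with low Foxd1 (cluster 20 at 694 and 4.88 CPM in replicate 1) to low Tcf21 with high Foxd1 (cluster 4 at 124 and 172 CPM), and the podocyte-like clusters 6 and 17 lie high on both axes.

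Detection was also compared within single stroma-like cells. Among cells thinned to 5000 UMIs, Tcf21 was detected in 51.5% and 43.2% of the 344 and 266 cells with a Foxd1 UMI in replicates 1 and 2, and in 76.5% and 72.8% of cells without one. Scx was detected in 27.9% and 43.2% of cells with a Foxd1 UMI and in 10.7% and 11.2% of cells without, and Twist1 in 36.0% and 40.2% against 26.4% and 27.8%. Meis1 was detected in 80.5% and 80.8% of cells with a Foxd1 UMI and in 70.9% and 69.1% of cells without. Ebf1 went the same way, at 79.9% and 78.2% against 76.2% and 68.9%, and so did Meis2 by less. For Alx1 the shares were 6.69% and 2.26% with a Foxd1 UMI and 18.6% and 22.5% without. Cells with a Tcf21 UMI held an Alx1 UMI in 21.4 ± 2.6% of cases, against 5.56 ± 0.20% of cells without, and an Scx UMI in 9.32 ± 0.98% against 34.5 ± 4.4%. Each difference had the same direction in both libraries, and cells are not replicates, so no test over cells was made. In podocyte-like cells Tcf21 was detected in nearly every cell, 91.8 ± 0.69% of those with a Foxd1 UMI and 91.3 ± 1.6% of those without, which leaves little room for a difference. There Meis2 was detected in 27.5% and 34.0% of cells with a Foxd1 UMI and in 40.3% and 50% of cells without one.

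**Figure D5:**
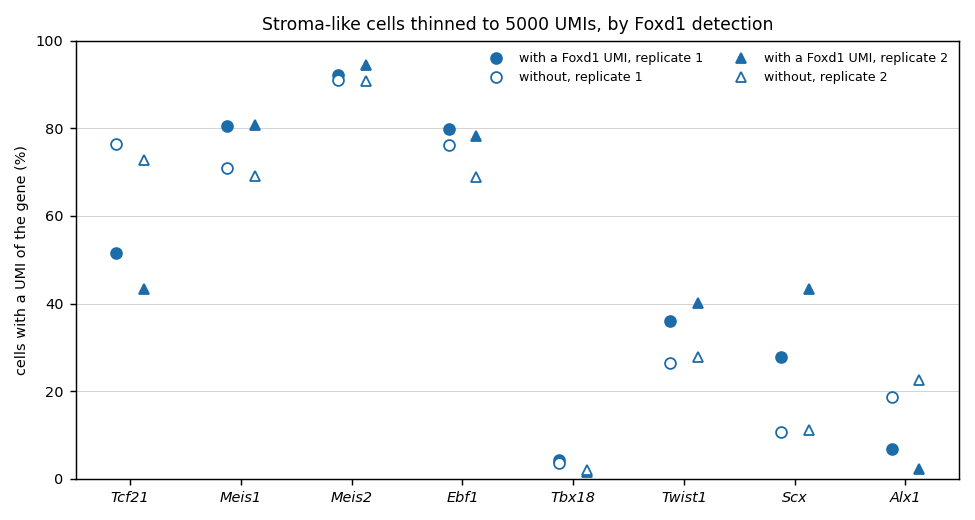
Share of stroma-like cells, thinned to 5000 UMIs, with a UMI of each other factor, for cells with a Foxd1 UMI (filled) and without (open), with circles for replicate 1 and triangles for replicate 2. Tcf21 and Alx1 are less frequent, and Scx, Twist1, Meis1, Ebf1 and, by less, Meis2 more frequent, in cells with Foxd1 in both libraries.

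A stroma-like cell thinned to 5000 UMIs held a UMI of 4.04 factors on average in replicate 1 and 3.97 in replicate 2. At least 3 factors were detected in 91.9% and 90.2% of them, against 70.4% and 57.7% of mural-like, 33.9% and 41.7% of podocyte-like, 11.7% and 14.4% of nephron progenitor-like and 4% and 4% of endothelial-like cells. No factor was detected in 0.415% and 0.1% of stroma-like cells and in 89.5% and 90.8% of loop of Henle-like cells.

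Dividing stromal cells, with a UMI of at least 3 of 6 mitotic markers, were compared with cells that had none. Twist1 stood at 109 and 114 CPM in dividing and at 64.4 and 66.2 CPM in non-dividing cells, a log2 fold change of 0.81 ± 0.08 (SE) with an adjusted p of 4.65e-07 (edgeR's quasi-likelihood test). Alx1 was lower, at 55.4 and 82.0 CPM in non-dividing and 30.7 and 25.0 CPM in dividing cells (-1.21 ± 0.16) and so was Tcf21, at 472 and 400 CPM and at 321 and 300.1 CPM (-0.44 ± 0.06), with adjusted p of 1.25e-05 and 6.62e-06 by edgeR's quasi-likelihood test. The groups also differed in make-up: the cluster led by Nts and Penk held 10% and 15.03% of non-dividing and 0.651% and 1.13% of dividing cells, and that led by Igfbp3 16.6% and 14.7% against 0.326% and 0%. The part of this make-up in the changes was not tested. Tbx18 (-1.06 ± 0.31) and Meis2 (0.14 ± 0.05) were also called, but both calls were lost with DESeq2 and without a library term. In all, 2 of 9 were higher and 3 lower, where 20.5% of the 11915 genes tested were higher and 19.2% lower. Foxd1 stood at 86.5 and 73.9 CPM in dividing and at 82.8 and 79.3 CPM in non-dividing cells and did not pass (log2 fold change 0.03 ± 0.08, adjusted p = 0.785, edgeR's quasi-likelihood test). Median depths were 12923 and 12503 UMIs in dividing and 8617 and 8322 UMIs in non-dividing cells. With a mitochondrial limit of 5% the Alx1 and Tcf21 changes turned, to 3.18 and 1.58, and the Twist1 call was lost. At that limit the non-dividing mean of Foxd1 rose from 81.0 to 168 CPM and that of Scx from 56.7 to 127 CPM. In dividing cells Foxd1 stayed between 73.8 and 85.8 CPM over all settings.

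The genes whose levels were most like each factor over the 11 named classes and 6 gates were ranked by Pearson's r of log2(CPM + 1) among 14239 genes. These 17 points share the same 2 libraries, and the gates are part of the stroma and mural classes, so r is a description. For Foxd1 they were Shisa3 (r = 0.976), Zbtb7c and 2810433D01Rik, and for Tcf21 they were Vstm4 (0.960), 6030408B16Rik and Pknox2. Meis1 was most like Gm16141 (0.980), a long noncoding RNA whose span lies within that of Meis1, then Mgp and Zfp9, and Meis2 was most like 2700033N17Rik (0.962), Zeb1 and Dchs1. For Ebf1 they were Tmem119 (0.963), Ecm1 and Peak1, for Tbx18 Fgf7 (0.967), Psd and Aoc3, and for Twist1 Pcdh9 (0.958), Zfpm2 and Vgll3. Alx1 was most like Gm11541 (0.964), Gm12108 and Kcnb2. Scx had no close match, with Lor (0.782), Mycn and Dlgap1 as the nearest. Among the factors themselves the highest r was 0.861 for Meis1 and Meis2, and the lowest was -0.36 for Tbx18 and Scx.

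Another 44 regulators were listed as relatives, partners or companions of the 9: 15 paralogs, 6 dimerization partners, 21 mesenchymal regulators and 2 podocyte regulators. In the comparison of stroma-like cells with other classes 39 were tested, of which 30 were higher and 2 lower, with the mesenchymal regulators at 19 higher of 20 tested, where 32.3% of all genes tested were higher and 20.8% lower. The 5 largest changes were those of Twist2, the close relative of Twist1 (7.77 on the log2 scale), Ebf3 (6.68), Hic1 (6.35), Prrx1 (6.05) and Gli2 (5.99). Between podocyte-like cells and the other nephron-lineage classes 19 of 39 were higher and 8 lower (28.7% and 32.8% of all genes), led by Foxs1 (6.73), the Foxd1 relative Foxd2 (6.60), Lmx1b (5.92), Foxc2 (5.41) and Wt1 (5.004), the last a zinc-finger factor required in podocytes. Against stroma-like cells 8 of 39 were higher in podocyte-like cells and 24 lower (29% and 31.6% of all genes), with Lmx1b at 8.96 and Hic1 at -8.23.

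In the gates 32 of the 44 were tested, and the share of all genes called higher and lower follows each count. The cortical gate had 4 higher and 7 lower (5.12% and 4.65%), among them Wt1 (2.81) and Ebf3 (2.30) higher and Prrx1 (-6.07), Zeb2 (-3.71) and Tshz3 (-3.69) lower. The medullary gate had 7 higher and 4 lower (5.58% and 4.91%), led among the higher ones by the T-box repressors Tbx3 (3.74) and Tbx2 (2.91). The interstitial gate had 7 higher and 0 lower (3.8% and 1.1%), with Prrx1 (1.97) and Zeb2 (1.89) in front, and the mesangial gate 2 higher, Snai2 (1.997) and Tcf4 (0.61), and 0 lower (2.37% and 1.2%). The adventitial gate had 7 higher and 8 lower (13.8% and 9.69%), with Ebf2 (7.24), Ebf3 (4.18) and Osr1 (3.999) higher beside Ebf1, and Tbx3 (-4.29) and Tbx2 (-4.14) lower. The mural gate had 4 higher and 3 lower (6.46% and 1.78%), with Foxf1 (6.68), Foxs1 (2.04) and Tbx3 (1.74) higher beside Tbx18. In dividing stromal cells 36 were tested, of which 11 were higher and 10 lower (20.5% and 19.2% of all genes), with Tcf15 (1.32) the largest rise and Osr1 (-1.70) the largest fall. All of these values are log2 fold changes with adjusted p under 0.05 in edgeR's quasi-likelihood test. The limits stated for members that passed the filter through 1 group, or were compared with groups near 0 UMIs, apply to them too.

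For 3 of the factors the span is shared with another counted gene. The deposited tables list Gm16141 with Meis1, G630016G05Rik with Meis2 and Bop1 with Scx, and how reads in a shared stretch were assigned was not given in the sources used here. Gm16141 stood at 28.8 and 33.0 CPM and G630016G05Rik at 17.3 and 20.7 CPM in stroma-like cells. Related genes elsewhere in the genome, such as Twist2, Foxd2 and Ebf3, had their own counts.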

How the data were processed

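The authors deposited raw UMI counts per gene and barcode for 2 libraries, with barcodes not filtered. The counts came from Cell Ranger 4 per the file headers, whereas the submitters' processing notes name Cell Ranger 6.0.1 and mm10. Total depth was 163405630 and 135436576 UMIs.

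Barcodes with at least 2000 UMIs and at most 10% mitochondrial UMIs were kept. Doublets were called by simulation in each library, and 310 and 212 were removed. Cells were clustered in scanpy 1.11.5 (2000 variable genes, 30 principal components, 15 neighbours, Leiden resolution 1) without 53 transcription factors and 6 sex-linked genes, which gave 34 clusters. A cluster was named from marker panels at a mean scaled score of at least 0.3 with at least 3 markers detected. Of the named classes 11 were found. A gate needed a mean scaled panel score of at least 1 and at least 2 detected markers. The score limits, the condition on the mural name and the comparison of podocyte-like with stroma-like cells were set after seeing the data. The members and lists were chosen with earlier results of these data known.

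UMIs were summed per library and class, gate or division state, and tested with edgeR 4.0.16 (quasi-likelihood, TMM, R 4.3.3) with the library as a block, which is the same sample and so a true pairing, and Benjamini-Hochberg adjustment over all genes at 0.05. Fits had 10, 5 and 2 residual degrees of freedom for classes, gates and division. The SE is the absolute log2 fold change over the root of F, and is left out where p was above 0.9. The library block takes out the general difference between the 2 libraries. The p-values rest on the variation of group differences between these 2 samples, pooled over all groups of a fit and moderated across genes. Intervals (95%, exact) and floors (3 counts) cover counting error only. The fits were tested on simulated data. DESeq2 1.42.0, other filters, resolutions and gates were alternatives.

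All members are named. Other listed factors are named up to 5 per comparison by absolute log2 fold change among those called, and 3 genes per member by correlation. Genes named as leading a cluster are among its top 10 by fold and were not tested.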

Additional observations from a re-analysis of the deposited data

How the results depend on the processing

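Of 54 member values called, 36 were called in every tested alternative, and 540 of 578 alternative tests stayed past the threshold in the same direction. Another 62 tests, at the other Leiden resolutions, are left out of that count because the stromal cells were the same there and the gate and dividing fits only repeated. Of 108 values from 1 library, 107 kept their direction. The exception was Tbx18 in podocyte-like against other nephron-lineage cells, at -0.082 without replicate 2 and 2.09 without replicate 1. With sub-clusters in place of gates Meis2 turned to 0.25 in the medullary and Alx1 to -0.14 in the mural comparison. With a mitochondrial limit of 5%, in dividing cells, Meis2 turned to -0.23, Tcf21 to 1.58 and Alx1 to 3.18. The cause was not tested. The mesangial count of called members, 2, became 1 with DESeq2, 1 at a limit of 20% and 6 with sub-clusters, where the sub-cluster given that name was led by Igfbp3, an interstitial marker, so that the 6 is no mesangial count. The mural count, 2, became 1 with DESeq2, 4 with no low-count filter, 4 with no doublet removal and 1 at a gate minimum of 1.5. The dividing count, 5, became 3 with DESeq2, 3 with no doublet removal and 3 with no replicate block. Without the replicate block the calls of Tbx18 in podocyte-like cells, Meis2 and Tbx18 in the medullary gate and Meis2 and Tbx18 in dividing cells were lost. Counts of calls without 1 library were not run, since no residual degrees of freedom remained. At a gate minimum of 1.5 the cortical and mesangial comparisons, with sub-clusters the cortical and interstitial ones, and at a limit of 5% all gate comparisons could not be fitted. Members with under about 10 UMIs in a group, such as Scx in the gates other than the cortical one, have levels that rest on few counts.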
